A study of Homo sapiens with 6 samples.

Results

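The genes described here encode the machinery of autophagy and the MiT transcription factors, 35 genes chosen by symbol from the 19923 genes of the deposited count table. All 35 had enough counts to be tested, among 14086 tested genes in all. The RNA came from BT549, an established breast cancer cell line. Of the 6 libraries, 3 carry the treatment label control and 3 the label ENL. What ENL stands for is not spelled out in the labels, which name no dose, time or vehicle. Nor do they say that replicate libraries were grown as separate cultures, and the p-values below therefore cover the spread between these libraries alone, which may be technical. In bulk RNA, fewer cells of a kind and less RNA per cell cannot be told apart.

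Autophagy encloses cytoplasm in a double membrane, the autophagosome, which fuses with the lysosome for digestion. A protein kinase complex around ULK1 or ULK2 starts the process, a lipid kinase complex around PIK3C3 marks the membrane, and ATG2, ATG9 and WIPI proteins bring lipid to it. A ubiquitin-like conjugation system then couples proteins of the ATG8 family (the LC3 and GABARAP proteins) to that membrane, where cargo receptors such as SQSTM1 (p62) bind them. The MiT factors TFEB, TFE3 and MITF are basic helix-loop-helix leucine zipper proteins that bind E-box DNA and drive genes of lysosomes and autophagy. The mRNA levels below do not measure autophagic flux.

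All 4 receptors and all 3 MiT factors were higher in ENL, together with 2 of the 5 ATG8 genes, whereas each of the other 5 roles held 1 higher gene and up to 2 lower ones. In edgeR's quasi-likelihood test, with p-values adjusted over all tested genes and a threshold of 0.05, 14 of the 35 genes (40.0%) were higher in ENL, against 20.0% of all tested genes, and 5 (14.3%) were lower, against 18.4%. The 35 genes were chosen with earlier results of these data known, so the shares here are a description and not a test. In either direction 19 of 35 (54.3%) passed, against 38.4% of all tested genes, and 16 did not. The 3 ENL libraries lay wholly above or below the 3 control libraries for 24 of the 35 (68.6%), against 54.0% of all tested genes. The median log2 fold change (log2FC, ENL over control) of the 35 genes was 0.22, and that of all tested genes was -0.02. By role the medians were 1.0 for the ATG8 genes, 0.98 for the receptors, 0.91 for the MiT factors, 0.18 for the conjugation enzymes, 0.02 for initiation, -0.04 for membrane supply, -0.28 for the lipid kinase complex and -0.30 for the ATG4 proteases. Of the higher genes, SQSTM1, OPTN, TFEB, MAP1LC3A and GABARAP (5 of 14) reached 2-fold or more, and 0 of the lower genes did.

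The scale of the libraries bears on these counts. Levels are given in CPM, gene counts divided by the size of the library after trimmed mean scaling (TMM), and changes are relative to that scale. Scaling by library totals alone moved the median of all tested genes to -0.23 and left 11 of the 35 genes higher and 8 lower, beside 1804 higher and 3996 lower genes in all (2819 and 2585 on the TMM scale). Library totals were 74457932 to 85310759 units. Ribosomal protein genes took 7.54% to 7.92% of control libraries and 10.5% to 12.8% of ENL libraries, and their part in the results below was not tested. On the second principal component (14.3% of the variance) ENL library 3 scored 55.8, and ENL libraries 1 and 2 scored -22 and -26.3. The mesenchymal markers VIM, CDH2, FN1, ZEB1 and AXL, which BT549 should carry, were all detected and summed to 3267 to 3953 CPM in control and 5878 to 6277 CPM in ENL (here per library total). Most of that sum was VIM (log2FC 1.12, adjusted p = 0.00122). CDH2 and FN1 were also higher (0.88 and 0.42, adjusted p = 0.0201 and 0.018). ZEB1 and AXL did not pass (0.54 and 0.06, adjusted p = 0.32 and 0.531). The luminal and epithelial markers ESR1, PGR, CDH1, EPCAM, GATA3 and KRT19 summed to 28.9 to 37.3 and 22.8 to 36.4 CPM, most of it GATA3, with PGR at 0 in every library. The 5 immune markers summed to 71.0 to 85.2 and 53.8 to 56.5 CPM, most of it CD68 (log2FC -0.13, adjusted p = 0.381), while CD14 fell from 9.68 to 1.71 CPM (log2FC -2.51, adjusted p = 0.000666). The 3 endothelial markers summed to 5.90 to 9.46 and 5.42 to 6.02 CPM, with CDH5 at 0 in every library, and the 3 fibroblast markers to 3.10 CPM or less. The part of these differences in the results below was not tested.

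**Figure D1:**
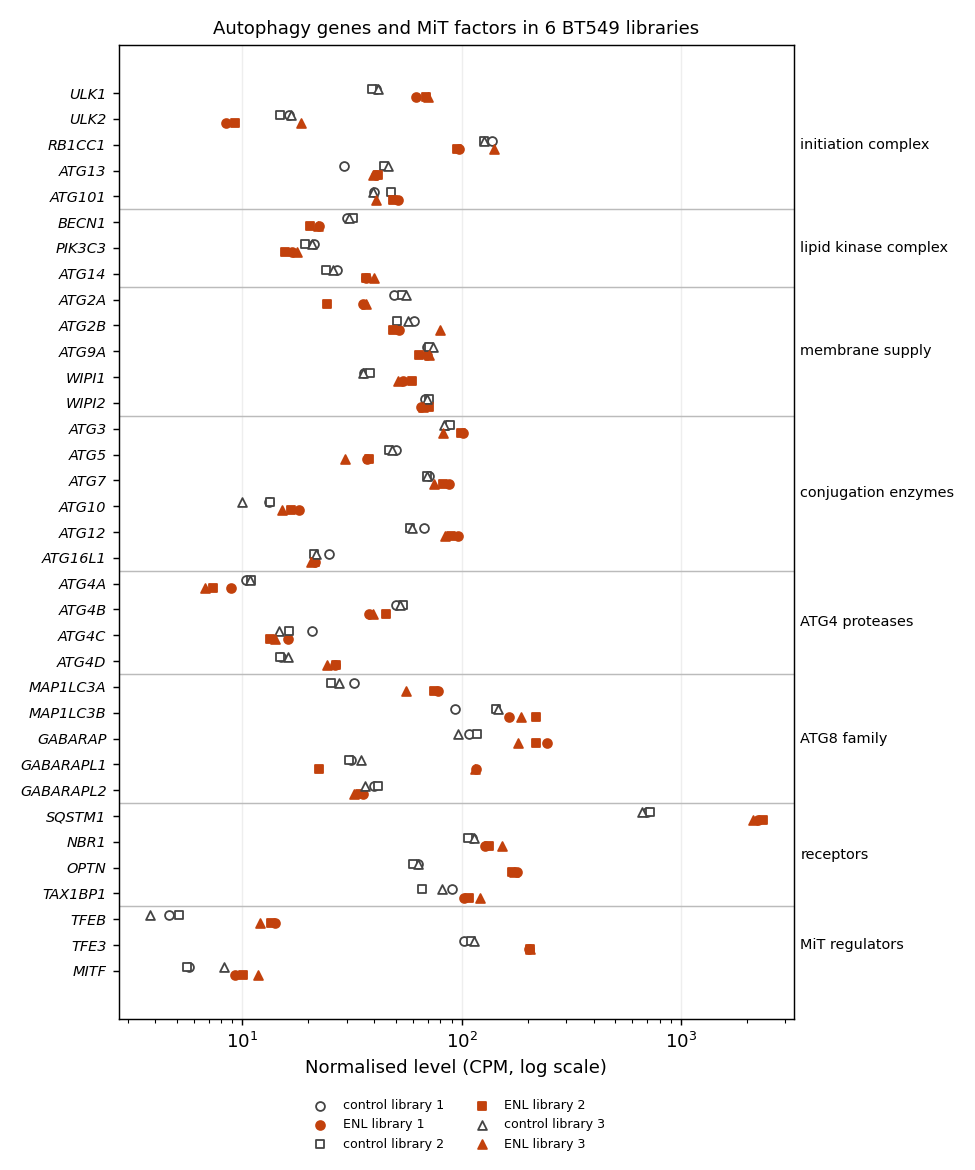
Normalised level (CPM, logarithmic axis) of each of the 35 genes in the 6 libraries, in rows grouped by role; open symbols are control libraries, filled symbols ENL libraries, and the symbol shape gives the library number. For SQSTM1, OPTN, TFEB and TFE3 the 2 groups are far apart, whereas for GABARAPL1 and ULK2 a single ENL library lies on the other side of the control libraries from its fellows.

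Among the genes of the initiation complex, only the kinase gene ULK1 passed the threshold. ULK1 (chromosome 12, 131894651 to 131923167, plus strand, GRCh38) measured 40.5, 38.9 and 41.7 CPM in control libraries 1 to 3 and 61.6, 68.5 and 70.3 CPM in ENL libraries 1 to 3. Every ENL library was above every control library, and the log2FC was 0.73 ± 0.09 (SE, n = 3 per group, adjusted p = 0.00114). Its paralog ULK2 measured 16.3, 14.8 and 16.6 CPM in control and 8.39, 9.20 and 18.4 CPM in ENL. ENL libraries 1 and 2 were thus below all control libraries and ENL library 3 above them, and its log2FC of -0.41 ± 0.30 did not pass (adjusted p = 0.326). RB1CC1, the scaffold of the complex also known as FIP200, showed the same arrangement, with 96.9 and 95.7 CPM in ENL libraries 1 and 2, 140.2 CPM in ENL library 3 and 127 to 138 CPM in control (log2FC -0.24 ± 0.16, adjusted p = 0.269). Without ENL library 3 both fell past the threshold, ULK2 with a log2FC of -0.84 (adjusted p = 0.00328) and RB1CC1 with -0.43 (adjusted p = 0.00444). The regulatory subunits ATG13 and ATG101 had log2FC values of 0.02 ± 0.18 and 0.14 ± 0.13 (adjusted p = 0.925 and 0.407), and the groups overlapped for both.

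Of the 3 genes of the lipid kinase complex, 1 rose, 1 fell and 1 did not pass the threshold. BECN1, the regulatory subunit Beclin 1 (chromosome 17, 42810134 to 42833350, minus strand), measured 29.9, 31.8 and 30.5 CPM in control and 22.4, 20.3 and 22.1 CPM in ENL. All ENL libraries were below all control libraries, with a log2FC of -0.51 ± 0.09 (adjusted p = 0.00526). ATG14, the subunit that directs the kinase to autophagy, measured 27.1, 24 and 25.8 CPM in control and 36.5, 36.7 and 39.7 CPM in ENL. It rose by 0.56 ± 0.09 on the log2 scale (adjusted p = 0.00404). The catalytic subunit PIK3C3 had a log2FC of -0.28 ± 0.10, which did not pass (adjusted p = 0.067) although its ENL libraries (15.7 to 17.7 CPM) all lay below its control libraries (19.3 to 21.2 CPM). PIK3C3 passed under scaling by library totals alone (-0.49, adjusted p = 0.016), under upper-quartile scaling (-0.37, 0.0262) and with a filter of 10 CPM in 3 libraries (-0.33, 0.0325). BECN1 shares exon bases with 2 genes on the opposite strand, 795 with CNTD1 and 300 with PSME3, and PSME3 had 129 CPM in control and 42.2 CPM in ENL. The sources used here do not give the strandedness of the counting, so reads from the overlap cannot be told apart. Summed with these genes BECN1 had a log2FC of -1.25 (adjusted p = 0.00481).

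Genes that supply membrane held 1 rise and 1 fall. WIPI1, a phosphoinositide-binding protein of the early autophagosome (chromosome 17, 68420948 to 68457513, minus strand), measured 36.0, 38.0 and 35.3 CPM in control and 53.8, 59.5 and 51.3 CPM in ENL, a rise of 0.59 ± 0.09 on the log2 scale (adjusted p = 0.00301). The lipid transfer protein gene ATG2A (chromosome 11, 64894546 to 64917248, minus strand) measured 49.1, 53.7 and 55.6 CPM in control and 35.4, 24.3 and 36.6 CPM in ENL, a log2FC of -0.72 ± 0.16 (adjusted p = 0.0136). The groups did not overlap for either gene. The paralogs of these genes among the members did not pass. WIPI2 had a log2FC of -0.04 ± 0.08 (adjusted p = 0.704), although under library totals alone it passed at -0.25 (0.0391). Of the WIPI relatives outside the members, WDR45 was higher (log2FC 0.27 ± 0.09, adjusted p = 0.0457), near the threshold. The call of WDR45 was not followed through the alternative settings. WDR45B did not pass (-0.19 ± 0.07, 0.0764). ATG2B had a log2FC of 0.10 ± 0.19 (adjusted p = 0.718), with 79.3 CPM in ENL library 3 against 51.8 and 48.8 CPM in the other ENL libraries. ATG9A, the lipid scramblase of the vesicles that seed the membrane, had a log2FC of -0.07 ± 0.08 (adjusted p = 0.51). WIPI1 shares 828 exon bases with ARSG on the opposite strand, a gene at 5.47 CPM in control and 6.32 CPM in ENL, and the summed pair rose by 0.55 (adjusted p = 0.0039).

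In the conjugation system the ubiquitin-like protein and the protein it is attached to went in opposite directions. ATG12, the ubiquitin-like protein (chromosome 5, 115828200 to 115841858, minus strand), measured 67.1, 58.2 and 59.6 CPM in control and 95.9, 89.2 and 83.7 CPM in ENL, and rose by 0.54 ± 0.09 (adjusted p = 0.00475). ATG5, its conjugation partner (chromosome 6, 106045423 to 106325791, minus strand), measured 50.1, 46.6 and 48.2 CPM in control and 36.8, 37.6 and 29.4 CPM in ENL, a log2FC of -0.48 ± 0.12 (adjusted p = 0.0164). Neither gene's groups overlapped. The call of ATG5 was lost without control library 1 (adjusted p = 0.0585) or control library 3 (0.0541). ATG12 shares 378 exon bases with AP3S1 on the opposite strand (66.0 CPM in control and 77.7 CPM in ENL). The sum of ATG12 and AP3S1 rose by 0.39 (adjusted p = 0.0247). The activating enzyme gene ATG7 had a log2FC of 0.22 ± 0.09 (adjusted p = 0.0782) and the conjugating enzyme genes ATG10 and ATG3 of 0.45 ± 0.15 (0.0543) and 0.13 ± 0.10 (0.327). For ATG7 and ATG10 all ENL libraries lay above all control libraries, and for ATG3 ENL library 3 (82.2 CPM) lay below the control range of 83.3 to 88.9 CPM. Without ENL library 3 these 3 genes passed, with log2FC values of 0.30, 0.53 and 0.24 (adjusted p = 0.0149, 0.046 and 0.0298). ATG10 also passed in DESeq2's Wald test (adjusted p = 0.0372), in limma-voom (0.0496) and with the replicate number as a block (0.0431). It shares 374 exon bases on the opposite strand with the far more abundant ribosomal protein gene RPS23 (1267 CPM in control and 2198 CPM in ENL), and the summed pair had a log2FC of 0.79, the same as RPS23 alone (adjusted p of the sum 0.00684). ATG16L1, which places the conjugate on the membrane, had a log2FC of -0.09 ± 0.10 (adjusted p = 0.516).

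The ATG4 proteases, which trim new ATG8 proteins and release them from the membrane, also divided. ATG4D (chromosome 19, 10543895 to 10553418, plus strand) measured 15, 14.8 and 16.2 CPM in control and 26.5, 26.6 and 24.3 CPM in ENL and rose by 0.75 ± 0.10 (adjusted p = 0.00161). ATG4B measured 50.4, 54.0 and 52.4 CPM in control and 37.7, 45.2 and 39.5 CPM in ENL, a log2FC of -0.36 ± 0.10 (adjusted p = 0.0263). ATG4A measured 10.4, 10.9 and 10.8 CPM in control and 8.87, 7.31 and 6.72 CPM in ENL, a log2FC of -0.49 ± 0.14 (adjusted p = 0.0322). Groups did not overlap for these 3 genes, but the falls were near the threshold. The call of ATG4A was lost without control library 1 (adjusted p = 0.0768), control library 2 (0.0941), control library 3 (0.095), ENL library 2 (0.0819) or ENL library 3 (0.0664), and with the replicate number as a block (0.0622). That of ATG4B was lost without control library 1 (0.0588), control library 2 (0.091), control library 3 (0.0841), ENL library 1 (0.0836) or ENL library 3 (0.0543). ATG4C had a log2FC of -0.24 ± 0.16 (adjusted p = 0.278). Both ATG4D and ATG4B share exon bases with a gene on the opposite strand. ATG4D shares 341 with KRI1 (63.6 CPM in control and 42.7 CPM in ENL), and the summed pair had a log2FC of -0.20 (adjusted p = 0.102). ATG4B shares 237 with THAP4 (74.6 and 85.3 CPM), and that sum came to -0.01 (adjusted p = 0.954). In both sums the neighbour was the larger part, so neither sum tests the ATG4 gene itself.

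The ATG8 genes MAP1LC3A and GABARAP about doubled. MAP1LC3A (chromosome 20, 34546854 to 34560345, plus strand), which encodes LC3A, measured 32.3, 25.3 and 27.5 CPM in control and 78.1, 74.7 and 55.7 CPM in ENL. It rose by 1.29 ± 0.16 on the log2 scale (adjusted p = 0.00119), with all ENL libraries above all control libraries. GABARAP (chromosome 17, 7240014 to 7242770, minus strand) measured 108, 117 and 96.4 CPM in control and 245, 219 and 181 CPM in ENL, and rose by 1.0 ± 0.13 (adjusted p = 0.00156), again without overlap of the groups. It shares 691 exon bases (30.5% of its own) with AC120057.2 on the same strand, a gene that was not tested. MAP1LC3B, which encodes the LC3B protein used as an autophagosome marker, measured 93.3, 143 and 146 CPM in control and 164, 218 and 186 CPM in ENL. Control library 1 stood below the other control libraries, and the log2FC of 0.57 ± 0.19 did not pass (adjusted p = 0.0569), although the groups did not overlap. It passed in DESeq2's Wald test (adjusted p = 0.0177), in limma-voom (0.0496) and with the replicate number as a block (0.0171). MAP1LC3B shares 150 exon bases on the opposite strand with FBXO31 (32.9 CPM in control and 49.5 CPM in ENL). The summed pair also passed (adjusted p = 0.0179), which does not test MAP1LC3B alone. GABARAPL2 had a log2FC of -0.20 ± 0.09 (adjusted p = 0.131), and of -0.41 under library totals alone, where it passed (0.0112).

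GABARAPL1 had the largest standard error of the 35 genes. It measured 31.3, 30.7 and 34.8 CPM in control and 116, 22.4 and 115 CPM in ENL. ENL libraries 1 and 3 were more than 3 times the highest control library, whereas ENL library 2 was below the lowest, and the log2FC of 1.39 ± 0.59 did not pass (adjusted p = 0.119). Without ENL library 2 it was 1.84 (adjusted p = 0.000289). A level in ENL library 2 more than 4-fold below both other ENL libraries was found in 47 of the 10779 genes that reached 5 CPM in mean level (0.436%), and among the 35 genes in GABARAPL1 alone. GABARAPL1 shares 329 exon bases with an antisense gene, AC115676.1, whose counts were not used here.

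Per kilobase of the longest annotated transcript, the ATG8 genes also changed order. In control GABARAP was highest at 65.7 ± 6.4 CPM per kb (mean ± SD, n = 3), followed by MAP1LC3B (47.3 ± 10.9), GABARAPL2 (39.1 ± 2.78), MAP1LC3A (18.0 ± 2.25) and GABARAPL1 (14.1 ± 0.983). The spreads of MAP1LC3B and GABARAPL2 overlap. In ENL the order was GABARAP (132 ± 19.8), MAP1LC3B (70.3 ± 10.1), MAP1LC3A (44.2 ± 7.67), GABARAPL1 (36.8 ± 23.4) and GABARAPL2 (34.0 ± 1.58), and the last 3 do not differ beyond the spread of GABARAPL1. The summed CPM of the 5 ATG8 genes was 305 to 357 in control and 568 to 638 in ENL. The longest annotated transcript need not be the one expressed, so levels between genes are approximate.

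All 4 cargo receptors were higher in ENL, and SQSTM1 and OPTN had the lowest adjusted p-values of the 35 genes. SQSTM1 (chromosome 5, 179806398 to 179838078, plus strand) encodes p62, which binds ubiquitinated cargo and is itself degraded by autophagy. It measured 699, 725 and 667 CPM in control and 2248, 2368 and 2137 CPM in ENL, a 3.23-fold rise (log2FC 1.69 ± 0.08, adjusted p = 3.7e-05). OPTN (chromosome 10, 13099449 to 13138308, plus strand), the receptor optineurin, measured 63.3, 60.1 and 63.1 CPM in control and 179, 169.6 and 173 CPM in ENL, a 2.80-fold rise (log2FC 1.49 ± 0.07, adjusted p = 3.32e-05). For both, the libraries of a group lay close together and far from the other group. SQSTM1 was by far the most abundant of the 35 genes per length, at 233 ± 9.80 CPM per kb in control and 754 ± 38.6 CPM per kb in ENL.

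The other receptors rose less. TAX1BP1 measured 90.0, 66.2 and 81.5 CPM in control and 103, 108 and 121 CPM in ENL, and rose by 0.48 ± 0.13 (adjusted p = 0.0252). NBR1, a receptor related to p62 in its domains, measured 111, 107 and 114 CPM in control and 128, 133 and 152 CPM in ENL, and rose by 0.31 ± 0.09 (adjusted p = 0.0306). Neither gene's groups overlapped, but both calls depended on the setting. Under library totals alone the log2FC values were 0.28 for TAX1BP1 and 0.10 for NBR1 (adjusted p = 0.175 and 0.466). The call of TAX1BP1 was also lost without control library 2 (0.0616), control library 3 (0.0643) or ENL library 2 (0.0531). That of NBR1 was lost without control library 1 (0.0852), control library 2 (0.106) or control library 3 (0.0721), and under upper-quartile scaling (0.0784). SQSTM1 shares 1582 exon bases with MRNIP on the opposite strand, which rose from 105 to 215 CPM, and 105 exon bases with MGAT4B (175 and 197 CPM). The sum of the 3 genes rose by 1.45 (adjusted p = 4.84e-05).

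**Figure D2:**
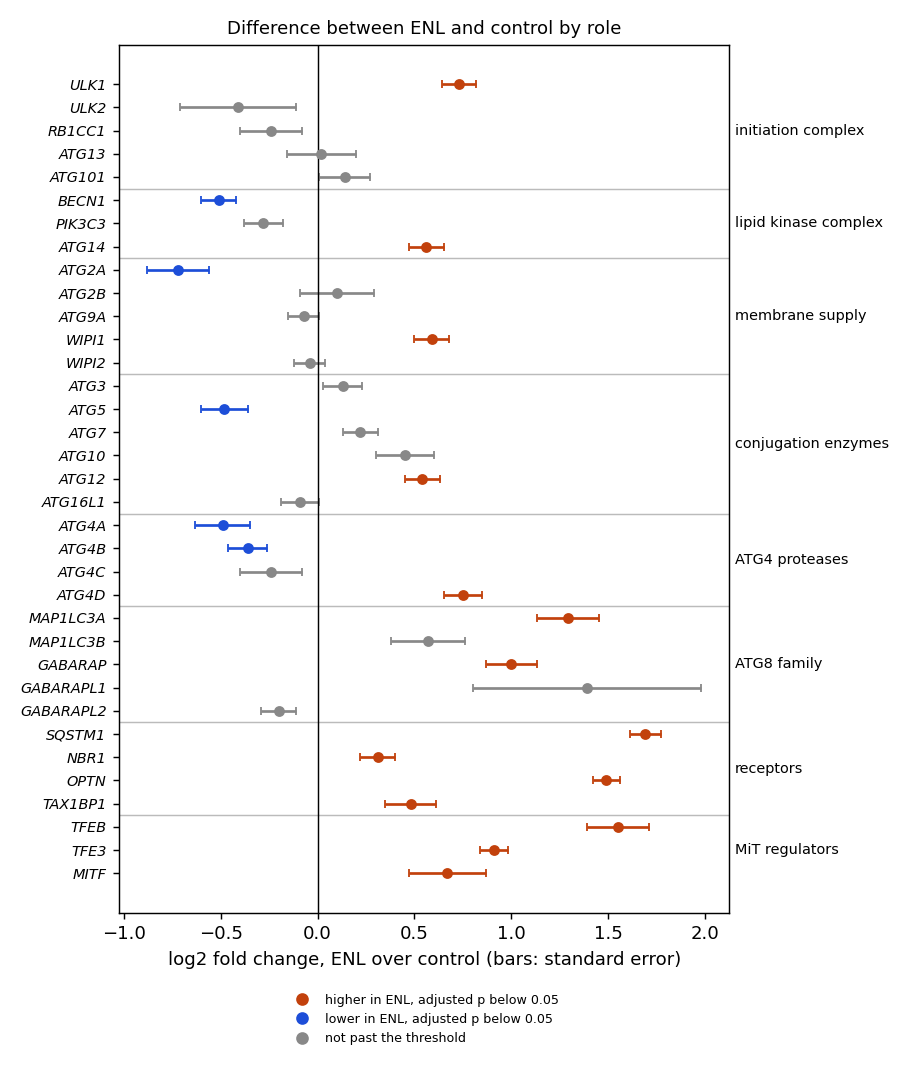
Log2 fold change of ENL over control for the 35 genes in rows grouped by role, with standard errors (edgeR, n = 3 per group); colour gives the direction of genes past an adjusted p of 0.05. The receptors and MiT regulators all lie to the right of 0, whereas initiation, lipid kinase, membrane and conjugation genes lie on both sides, and GABARAPL1 has the widest error bar.

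The 3 MiT factors were higher in ENL. TFE3 (chromosome X, 49028726 to 49043486, minus strand) measured 102, 110.1 and 114 CPM in control and 202, 205 and 206 CPM in ENL, and rose by 0.91 ± 0.07 (adjusted p = 0.000236). TFEB (chromosome 6, 41683978 to 41736259, minus strand) measured 4.62, 5.11 and 3.78 CPM in control and 14.0, 13.5 and 12 CPM in ENL, a 2.92-fold rise (log2FC 1.55 ± 0.16, adjusted p = 0.000573). The ENL libraries of each gene lay close together above all control libraries. MITF (chromosome 3, 69739435 to 69968337, plus strand), known best as the melanocyte factor, measured 5.69, 5.58 and 8.26 CPM in control and 9.21, 10.1 and 11.8 CPM in ENL, and rose by 0.67 ± 0.20 (adjusted p = 0.0327). Its groups did not overlap, but its call was lost without control library 1 (adjusted p = 0.108), control library 2 (0.104), ENL library 2 (0.0666) or ENL library 3 (0.0722). It was also lost under library totals alone (0.116) and, at the threshold, under upper-quartile scaling (0.05).

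The MiT factor with the largest fold change was not the most abundant. Per kilobase, TFE3 stood at 31.8 ± 1.91 CPM in control and 59.9 ± 0.616 CPM in ENL, TFEB at 1.73 ± 0.260 and 5.07 ± 0.408 CPM, and MITF at 1.35 ± 0.315 and 2.16 ± 0.277 CPM. In control TFEB and MITF did not differ beyond their spread. TFE3 mRNA thus exceeded that of TFEB and MITF in both groups. The activity of these factors is set largely by phosphorylation and entry into the nucleus, which mRNA levels do not show.

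Since MiT factors bind the E-box core CACGTG, promoters of the members were searched for it. RefSeq promoter windows (GRCh38.p14, 250 bases before to 50 after the start) were found for 32 of the 35 genes, and both strands were read. Only 1 window per member was read, the first listed, whereas every listed window entered the background of all genes. Some windows, such as that of ATG5, lie inside the gene as annotated. The core CACGTG was present in 2 of the 32 (6.25%), those of ATG14 and ATG3, and in 2548 of 35116 windows of all genes (7.26%). The extended palindrome TCACGTGA, the centre of the element named CLEAR, was present in 1 of the 32 (3.12%), ATG3, and in 0.98% of all windows. TGACNNNGC, the core of the antioxidant response element, was present in 2 of the 32 (6.25%), ATG101 and MAP1LC3B, and in 13.3% of all windows. The matching stretches of ATG14 and ATG3 are shown first, with the E-box in capitals together with the adjoining motif bases that fall in the stretch (the T before the first E-box of ATG3 lies just outside it), and then upstream stretches of SQSTM1 and TFEB, members with large rises, whose windows held no match. The stretches lie at chr14:55411833-55411862 (minus strand, positions -32 to -3 from the start), chr3:112561951-112561980 (minus, -18 to 12), chr5:179806335-179806392 (plus, -58 to -1) and chr6:41735609-41735858 (minus, -250 to -1).
ATG14: aaacaaaatccCACGTGActggctctcctc
ATG3: CACGTGccgggagagtctagtgTCACGTGA
SQSTM1: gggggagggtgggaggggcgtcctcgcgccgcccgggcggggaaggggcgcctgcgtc
TFEB: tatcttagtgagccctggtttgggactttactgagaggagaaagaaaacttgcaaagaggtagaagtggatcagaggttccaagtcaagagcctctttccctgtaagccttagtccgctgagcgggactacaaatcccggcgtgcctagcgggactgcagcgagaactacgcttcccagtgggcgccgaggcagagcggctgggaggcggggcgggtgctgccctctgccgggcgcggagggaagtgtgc

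Of the pair with the core, ATG14 rose and ATG3 did not pass. A match is a description of the letters and not a site of binding, each gene may have other starts, and the absence of these letters from a window says nothing of the factor.

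Other genes around the MiT factors, from a list of 16 regulators, relatives and reported targets, included some of the larger rises of the pathway. Of 15 tested, 6 were higher and 2 lower in ENL (20.0% and 18.4% of all tested genes), with a median log2FC of 0.22 (-0.02 over all tested genes). RRAGD, a Rag GTPase gene of nutrient signalling at the lysosome and a reported MiT target, measured 0.972, 0.345 and 0.576 CPM in control and 7.67, 7.69 and 7.74 CPM in ENL. That is a 12.1-fold rise (log2FC 3.60 ± 0.37, adjusted p = 0.000589), with control counts of only 28 to 85 units. RRAGC, a paralog, rose from 46.3 ± 4.34 to 90.1 ± 4.53 CPM (mean ± SD, n = 3), or by 0.96 ± 0.10 (adjusted p = 0.00058). The other higher genes, named after their values were seen, were FLCN (0.80 ± 0.09) and its partner FNIP1 (0.74 ± 0.12), which act on RRAGC and RRAGD proteins, the 14-3-3 gene YWHAZ (0.41 ± 0.09) and the coactivator gene PPARGC1A (2.73 ± 0.60). PPARGC1A measured 0.286, 0.740 and 0.553 CPM in control, from only 25, 60 and 47 units. In ENL it measured 4.26, 1.26 and 4.94 CPM, with library 2 low as for GABARAPL1. The call of PPARGC1A was lost with the replicate block (adjusted p = 0.0579). The call of YWHAZ was lost without control library 2 (adjusted p = 0.054) or control library 3 (0.0564).

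The lower genes of that list were RRAGA, the Rag partner of RRAGC and RRAGD, and PPP3CA. RRAGA had a log2FC of -0.32 ± 0.07 (adjusted p = 0.0121). PPP3CA, a catalytic subunit of calcineurin, the phosphatase that acts on TFEB, had one of -0.40 ± 0.09 (adjusted p = 0.0144), and its call was lost without control library 1 (0.0514). The lysosomal calcium channel gene MCOLN1, another reported target, had a log2FC of 0.07 ± 0.10 (adjusted p = 0.618) and was named after its values were seen. TFEC, the fourth member of the MiT family, was at 0 in 5 libraries and was not tested.

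**Figure D3:**
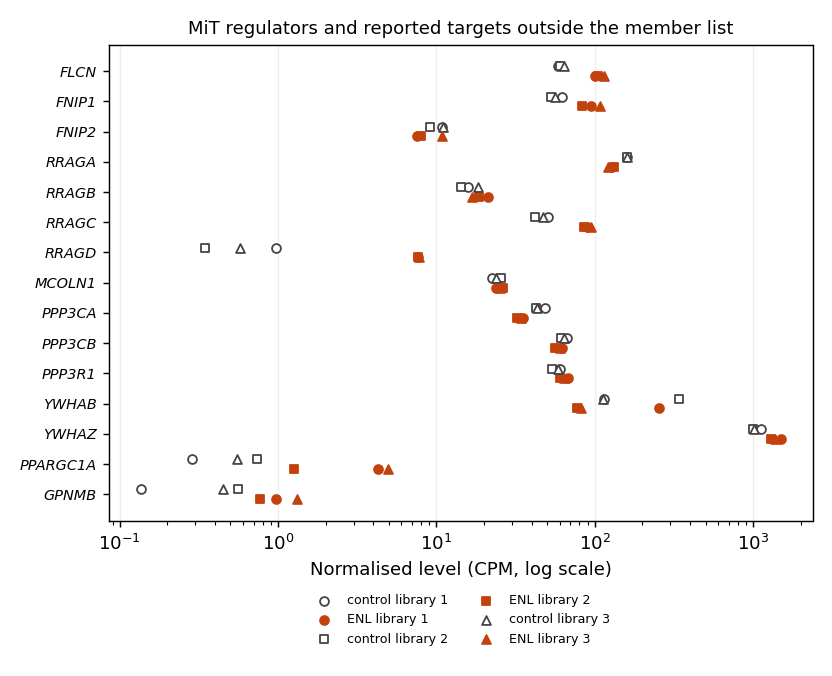
Normalised level (CPM, logarithmic axis) of the 15 tested genes on the list of MiT relatives, regulators and reported targets in the 6 libraries; open symbols are control, filled symbols ENL, and the shape gives the library number. RRAGD, RRAGC, FLCN and FNIP1 have all ENL libraries to the right of all control libraries, MCOLN1 does not, and YWHAB has 1 high library in each group.

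Over the whole list of 70 other autophagy genes, 69 were tested, and 22 (31.9%) were higher and 8 (11.6%) lower in ENL, beside 20.0% and 18.4% of all tested genes, the background for the smaller lists too. Under library totals alone 9 were higher and 12 lower. Of the named genes followed through the settings, which leave out WDR45, RUBCN (adjusted p = 0.131), ZFYVE1 (0.161), ATG16L2 (0.165), VPS41 (0.155) and YWHAZ (0.116) lost the call. Among 13 kinase subunits and regulators, 5 were higher and 1 lower. The lipid kinase regulators NRBF2 and RUBCN rose by 0.53 ± 0.10 and 0.43 ± 0.09 (adjusted p = 0.00725 and 0.0111), whereas PIK3R4, the scaffold subunit that holds PIK3C3, had a log2FC of -0.73 ± 0.15 (adjusted p = 0.01). PIK3R4 measured 36.6, 36.1 and 37.4 CPM in control and 20.0, 18.9 and 27.6 CPM in ENL. Among 11 further membrane genes, 3 were higher, among them ZFYVE1 (0.39 ± 0.09, adjusted p = 0.0149) and ATG16L2 (0.38 ± 0.09, 0.0153), and 1 was lower, TP53INP2 (-0.36 ± 0.09, 0.0158). Their calls were lost without control library 2 (ZFYVE1, adjusted p = 0.0639, and TP53INP2, 0.0547), control library 3 (ATG16L2, 0.0672, and TP53INP2, 0.0739) or ENL library 1 (TP53INP2, 0.0545).

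Among 18 other genes of selective autophagy, 4 were higher and 1 lower, where 20.0% and 18.4% of all tested genes were, a share of higher genes near that background. RETREG1, a receptor for endoplasmic reticulum, rose by 0.94 ± 0.13 (adjusted p = 0.00178), from 8.61 ± 0.296 to 16.6 ± 1.94 CPM. TOLLIP, a ubiquitin-binding adaptor, rose by 0.86 ± 0.12 (adjusted p = 0.00193), from 19.5 ± 1.93 to 35.4 ± 3.36 CPM. TBK1, the kinase that phosphorylates optineurin and p62, had a log2FC of -0.36 ± 0.10 (adjusted p = 0.0286), which was lost without control library 1 (0.0978), control library 3 (0.0907), ENL library 1 (0.0667) or ENL library 2 (0.0777). Of 12 genes of fusion with the lysosome, 4 were higher and 3 lower (20.0% and 18.4% of all tested genes). Subunits of the HOPS tethering complex were found on both sides, VPS11 at 0.62 ± 0.08 (adjusted p = 0.00164), VPS41 at 0.44 ± 0.10 (0.0124) and VPS33A at -0.49 ± 0.09 (0.00484). PLEKHM1, an adaptor that links HOPS to ATG8 proteins, had a log2FC of -0.52 ± 0.13 (adjusted p = 0.0219). The call of VPS41 was lost without control library 2 (0.0514). That of PLEKHM1 was lost without any 1 control library (0.0539 to 0.0717), without ENL library 1 (0.0631) or ENL library 2 (0.0538), and with the replicate block (0.0507).

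The position of ENL library 3 among the members went with transcript length. Its CPM divided by the mean CPM of ENL libraries 1 and 2 had a median of 0.858 for the 6 members under 2 kb, 0.953 for the 14 from 2 to 4 kb, 1.07 for the 10 from 4 to 6 kb and 1.46 for the 5 above 6 kb. Over all tested genes with a length the medians in the same classes were 0.836, 0.972, 1.09 and 1.2. The long members ULK2 (2.09), ATG2B (1.58) and RB1CC1 (1.46) had the highest ratios beside GABARAPL1 (1.66), and the short MAP1LC3A the lowest (0.729). Across the 35 genes the Spearman correlation of this ratio with length was 0.67, and over 13406 tested genes it was 0.45; these genes share the same 3 libraries and are not independent replicates. The part that transcript length or ENL library 3 has in the calls of single members was not tested beyond leaving that library out, and without it 16 members were higher and 5 lower. Members called higher had a median length of 3.47 kb, those called lower 3.22 kb and the others 3.71 kb. The Spearman correlation of length with log2FC was -0.26 across the 35 genes and -0.12 over the 13406 tested genes. In the same length classes the median log2FC of the members was 0.67, 0.29, 0.39 and -0.28. Over all tested genes with a length it was 0.14, -0.02, -0.05 and -0.09.

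**Figure D4:**
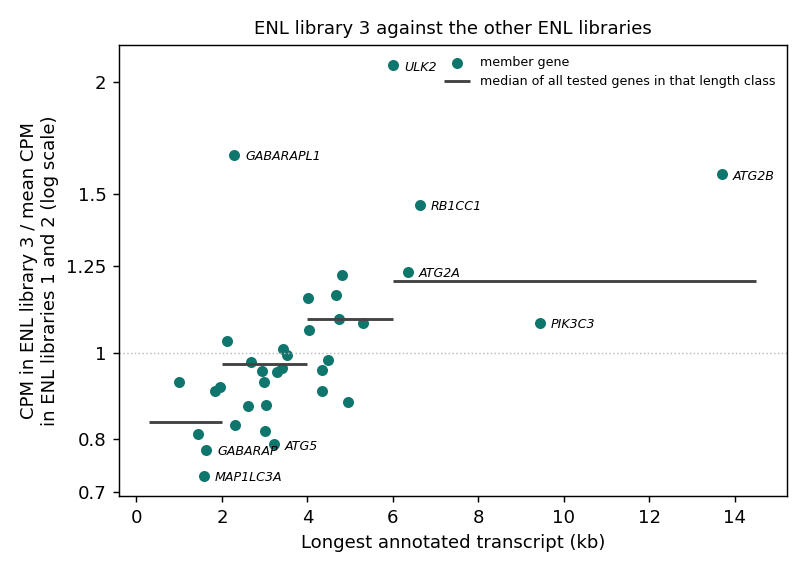
Ratio of CPM in ENL library 3 to the mean CPM of ENL libraries 1 and 2 (logarithmic axis) against the length of the longest annotated transcript for the 35 genes; horizontal bars are the medians of all tested genes in 4 length classes. The ratios run from 0.729 for MAP1LC3A to 2.09 for ULK2 and tend to be higher for longer transcripts, and the bars rise from 0.836 to 1.2.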

How the data were processed

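RNA sequencing libraries of BT549 cells, 3 control and 3 ENL, were compared. The authors deposited 1 table with an estimated count per gene symbol and library; per the submitters' processing notes, hg38 and the tools STAR, StringTie, FastQC and DESeq2 were used, in roles and versions not given in the sources used here. Low values gathered at or 1 above multiples of 4 (70.8% to 73.1% of values from 4 to 43). An even spread would place as many values there as elsewhere in that range. From this gathering 1 fragment was taken to be worth about 4 units, so low values are less precise than they look. The values are whole and needed no rounding. Libraries within a group differed by more than sampling noise (chi-square per degree of freedom 21.17 to 54.78), so all 6 were counted.

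A filter on low counts (filterByExpr, minimum count 10) and TMM scaling came first. The quasi-likelihood F test of edgeR (robust, two-sided, group alone) followed, with Benjamini-Hochberg adjustment over all tested genes. Standard errors come from the F value. The versions were edgeR 4.0.16, DESeq2 1.42.0 and limma 3.58.1 under R 4.3.3. The test was also checked on simulated data in which far fewer genes changed than were called here. That check does not cover a shift in scale or a deviating library. Coordinates and overlaps of at least 100 exon bases come from GENCODE 29 (GRCh38), which matched 98.1% of symbols, and promoters from RefSeq.

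The members and lists were chosen with earlier results of these data known. Values in every library are given for up to 3 called members per role with the largest change and for 8 set genes (SQSTM1, ULK1, BECN1, MAP1LC3B, GABARAPL1, TFEB, TFE3 and MITF), and for further members where libraries diverged. Of the other genes, up to 2 per direction and list with the smallest adjusted p are named. WDR45 and WDR45B were named outside that rule, as relatives of the WIPI genes. Alternatives were other scalings, tests and filters, values divided by 4, overlapping genes summed, the replicate number as a block and each library left out.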

Additional observations from a re-analysis of the deposited data

How the results depend on the processing

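Of the 19 members past the threshold, 12 kept direction and call in all 17 alternative settings: ULK1, BECN1, ATG14, ATG2A, WIPI1, ATG12, MAP1LC3A, GABARAP, SQSTM1, OPTN, TFEB and TFE3. The other 7 lost the call in at least 1 setting, ATG4D only with overlapping genes summed. With overlapping genes summed, most of the BECN1 value was PSME3 (129 CPM in control and 42.2 CPM in ENL, beside 30.8 and 21.6 CPM of BECN1). That setting therefore does not test BECN1 itself. Nor does it test ATG4D (15.3 CPM in control and 25.8 CPM in ENL), summed with the more abundant KRI1 (63.6 and 42.7 CPM). The same holds for ATG4B (52.2 and 40.8 CPM), summed with THAP4 (74.6 and 85.3 CPM). With library totals as the only scaling there were 1804 higher and 3996 lower genes, 8 lower members and 9 higher other pathway genes, and glmTreat against a 1.2-fold change gave 1713 lower genes, 2 lower members and 10 higher and 2 lower other pathway genes. With 1 library left out, lower members numbered 2 to 5, higher other pathway genes 12 to 23 and lower ones 4 to 9. Directions reversed for ATG13, at -0.06 with upper-quartile scaling, -0.18 with library totals, -0.02 with at least 10 CPM in 3 libraries and -0.05 with overlapping genes summed. With 1 library left out ATG13 ran from -0.16, without control library 1, to 0.15. ATG101 (-0.07), ATG2B (-0.10) and ATG3 (-0.08) reversed with library totals. With 1 library left out ATG2B ran from -0.14, without ENL library 3, to 0.23, without ENL library 2. The cause of these reversals was not tested, and none of these genes was called. The sum of ATG4D with KRI1 was also reversed (-0.20) against ATG4D, which was called, with KRI1 the larger part of that sum. With the replicate block 2631 genes were higher and 2310 lower, and 16 and 4 members. Deviations of same-numbered libraries correlated at 0.03, 0.046 and 0.08, all under 0.1, and those of unlike-numbered libraries at -0.075 to 0.032. Each control library correlated highest with the ENL library of its number, but ENL library 1 correlated as well with control library 2 (0.032). Correlations this small cannot tell whether the numbers pair the libraries. MITF was not tested at 10 CPM. Low counts limit TFEB and MITF most among the members in control, and PPARGC1A, RRAGD and ATG9B most among the other genes named.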

Other observations

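Paralogs of the members that lie outside the list were read after the members' values were seen. ATG9B, the paralog of ATG9A, measured 1.70, 1.15 and 1.29 CPM in control and 0.527, 0.690 and 0.698 CPM in ENL, a log2FC of -1.11 ± 0.31 (adjusted p = 0.0271) from 36 to 149 units per library. Its call was lost with the replicate block (0.0762), and also when control library 1 (0.102), control library 3 (0.0683), ENL library 1 (0.0721) or ENL library 2 (0.0525) was left out. MAP1LC3C, a further LC3 gene, was at 0 in all 3 control libraries and at 17, 4 and 30 units in ENL libraries 1 to 3, too few to be tested. MAP1LC3B2, a near copy of MAP1LC3B that could share its reads, was at 222 to 316 units and had a log2FC of 0.39 ± 0.17 (adjusted p = 0.105).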
